A study of Mus musculus with 15 samples.

Results

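Complex I (NADH:ubiquinone oxidoreductase) is the first and largest complex of the mitochondrial respiratory chain. The transcripts of its nuclear-encoded subunits and of the Ndufaf assembly factors were followed while mouse embryonic stem cells (ESCs) became epiblast-like cells (EpiLCs), with and without knockout (KO) of Atg7. The genes were chosen by symbol alone (Nduf, then a, b, c, s, v, ab or af, then a number), which gave 45 of the 24982 symbols in the count tables. They comprise 36 subunits, of which 7 are core subunits and 29 accessory ones, 8 assembly factors (Ndufaf1 to Ndufaf8), and Ndufa4, which was first assigned to complex I and is now counted as a subunit of cytochrome c oxidase. Of these, 44 had enough counts to be tested. Ndufs5 had 0 counts in all 15 libraries, which with no other information says only that no read was assigned to it. The symbol Ndufb1 was not used here, and 0 of the 7 mitochondrially encoded ND subunits were among the symbols, so the text below covers the nuclear-encoded part.

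The 15 libraries of polyadenylated RNA came from the mouse ESC line E14TG2. They fall into 5 groups of 3: ESCs (day 0), and Atg7 KO and control cells after both 2 and 4 days of induction. The ESCs carry the genotype control in the labels and were grown with LIF, PD0325901 and CHIR99021 on inactivated mouse embryonic fibroblasts, and the cells of days 2 and 4 had been seeded on fibronectin in N2B27 medium with activin A, bFGF and serum replacement. Atg7 encodes an enzyme that autophagosome formation needs. Atg7 KO cells of day 0 were not analysed here. The labels do not give how the KO was made or whether it is 1 clone. Nor do they state that replicates were cultured apart, and p-values therefore reflect a spread between samples that may be technical.

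Complex I has a matrix arm, which takes electrons from NADH through a flavin and a chain of iron-sulfur clusters to ubiquinone, and a membrane arm, which pumps protons. The core subunits carry out the catalysis, the accessory subunits surround them and are needed for assembly and stability, and the assembly factors hold or modify parts of the complex while it is built and then leave it. Naive mouse ESCs are known to use both respiration and glycolysis, whereas primed pluripotent cells rely more on glycolysis.

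Nuclear respiratory genes are known to be controlled in part by NRF1, by ETS factors such as GABP and by YY1, so the 250 bases upstream of each RefSeq start (build GRCm38.p6) were searched on both strands. The table held such a window for 40 of the 45 genes. The NRF1 motif GCATGCGC (on the other strand GCGCATGC) was present in 4 of the 40 (10%), Ndufa6, Ndufa8, Ndufa11 and Ndufaf4, against 3.36% of the 18203 genes with a window. The ETS motif CCGGAAG, or CTTCCGG read on the other strand, was present in 5 (12.5%), Ndufaf1, Ndufaf8, Ndufb6, Ndufb7 and Ndufs3, against 10.1%. The E-box CACGTG was present in 2 (5.0%), Ndufa7 and Ndufv1, against 7.75%, and the YY1 motif AAGATGG, or CCATCTT read on the other strand, in 0, against 4.86%. Thus 11 of the 40 genes had 1 of these 4 motifs in a window, and a match or its lack describes these letters only. A window upstream of a RefSeq start can also reach into the gene as annotated elsewhere. In GENCODE M21, Ndufa8 begins at 36049406 and Ndufs3 at 90904827 of chromosome 2, inside their windows. Their matches thus lie within the annotated gene. The 5 windows below belong to genes on which the results turn: Ndufs3 and Ndufs8, core subunits that were higher in KO cells at day 4, Ndufa8 and Ndufa11, membrane-arm subunits that were lower in KO cells at day 2, and Ndufa4, which ran against the other genes over time. They are written 5′ to 3′ on the strand of the gene, and capitals mark the motif found.
Ndufs3 (chr2:90904722-90904971, minus strand, ETS motif): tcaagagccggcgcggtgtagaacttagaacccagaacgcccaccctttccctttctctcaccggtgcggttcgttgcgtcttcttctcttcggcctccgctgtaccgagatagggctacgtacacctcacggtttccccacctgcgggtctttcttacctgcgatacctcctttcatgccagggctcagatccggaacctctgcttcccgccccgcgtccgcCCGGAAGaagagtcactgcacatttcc
Ndufs8 (chr19:3912775-3913024, minus strand, no motif found): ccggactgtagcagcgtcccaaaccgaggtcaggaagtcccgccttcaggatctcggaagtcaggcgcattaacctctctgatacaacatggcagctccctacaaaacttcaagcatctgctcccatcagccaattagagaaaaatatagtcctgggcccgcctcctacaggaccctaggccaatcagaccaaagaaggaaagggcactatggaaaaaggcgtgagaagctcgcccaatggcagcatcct
Ndufa8 (chr2:36049339-36049588, minus strand, NRF1 motif): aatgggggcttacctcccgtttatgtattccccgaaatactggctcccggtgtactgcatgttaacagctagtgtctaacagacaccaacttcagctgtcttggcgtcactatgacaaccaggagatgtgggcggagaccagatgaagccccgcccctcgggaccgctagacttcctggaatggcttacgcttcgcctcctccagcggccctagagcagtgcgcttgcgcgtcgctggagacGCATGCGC
Ndufa11 (chr17:56717512-56717761, plus strand, the NRF1 motif on both strands, overlapping): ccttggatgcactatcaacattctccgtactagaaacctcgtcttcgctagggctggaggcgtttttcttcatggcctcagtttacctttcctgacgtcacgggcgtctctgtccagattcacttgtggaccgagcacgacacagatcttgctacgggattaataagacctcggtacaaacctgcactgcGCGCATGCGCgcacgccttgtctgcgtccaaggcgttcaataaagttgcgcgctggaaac
Ndufa4 (chr6:11907451-11907700, minus strand, no motif found): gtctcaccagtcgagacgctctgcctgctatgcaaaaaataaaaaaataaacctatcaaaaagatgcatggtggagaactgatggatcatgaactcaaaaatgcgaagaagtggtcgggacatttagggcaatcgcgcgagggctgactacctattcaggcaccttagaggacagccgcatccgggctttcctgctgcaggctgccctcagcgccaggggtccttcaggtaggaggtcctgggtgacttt

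Library totals were between 14059237 and 23371546 counts, and the member genes took between 0.199% and 0.304% of them. Levels below are CPM on the TMM-scaled library size. Changes are on the log2 scale with their standard error, as estimated by edgeR's quasi-likelihood model of all 15 libraries and 15696 tested genes, and a gene is said to rise or fall only where the Benjamini-Hochberg adjusted p over those genes was under 0.05. Atg7 itself had 138, 181 and 166 counts in KO and 261, 257 and 324 in control cells at day 2, and 208, 220 and 160 in KO and 318, 288 and 330 in control cells at day 4, so its transcript was lowered and not removed. The log2 change was -0.92 ± 0.11 at day 2 and -0.71 ± 0.11 at day 4, with adjusted p from edgeR of 8.34e-06 and 8.39e-05. Of 7 ESC markers 6 were lower, and of 5 EpiLC markers 4 were higher, in control cells at day 4 than in ESCs.

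The 3 ESC libraries stand apart in a way that their labels do not give. Hprt, a purine salvage gene, had 2718, 3006 and 3032 counts in the ESC libraries and between 23 and 53 counts in each of the other 12 libraries. The subline E14TG2a is known for a deletion at Hprt. All 15 labels name the same line, so a difference of line and the step out of the ESC state cannot be told apart in any value set against the ESC libraries. The steps between days 2 and 4, in control and in KO cells, use no ESC library and are given beside them. Markers of other cells also differed. The summed level of 10 fibroblast markers was 221 to 1726 CPM in the ESC libraries, 435 to 781 CPM in KO and 239 to 272 CPM in control libraries at day 2, and 135 to 175 CPM in KO and 92.01 to 95.64 CPM in control libraries at day 4. The summed level of 6 primitive endoderm markers was 26.0 to 47.9 CPM in ESC libraries, 177 to 196 CPM in KO and 144 to 163 CPM in control libraries at day 2, and 386 to 432 CPM in KO and 316 to 421 CPM in control libraries at day 4. The part of either cell type in the results was not tested. In bulk RNA, a change in the share of such cells and a change of RNA per cell cannot be told apart.

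The transcripts of complex I fell together over the transition. Between ESCs and control cells at day 4, 40 of the 44 tested genes were lower (90.9%, against 35.6% of all tested genes) and 1, Ndufa4, was higher (2.27%, against 36.2%). The median log2 fold change was -0.75, against 0.01 over all tested genes. Every ESC library lay above every control library of day 4 for 39 of the 44 genes (88.6%), against 34.2% of all tested genes. The summed level of all 45 genes was 3183 to 3361 CPM in ESCs, 2623 to 2856 CPM in control cells at day 2 and 1978 to 2201 CPM in control cells at day 4. Without scaling, their share of counts was 0.289% to 0.304%, 0.270% to 0.287% and 0.206% to 0.229% in the same order. TMM factors were 0.906 to 0.918 in ESC and 1.005 to 1.039 in control day 2 libraries, so the size of the first step depends in part on the scaling. The fall was spread over both steps: 29 genes were lower and 2 higher from ESCs to control day 2 (against 34.9% lower and 35.6% higher of all tested genes), with a median of -0.28, and 33 were lower and 4 higher from day 2 to day 4 (against 34.6% and 33.9%), with a median of -0.45. For 22 genes both steps passed the test downwards. Every ESC library lay above every day 2 library, and each of those above every day 4 library, for 22 of the 44 genes (50.0%), against 8.77% of all tested genes.

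**Figure D1:**
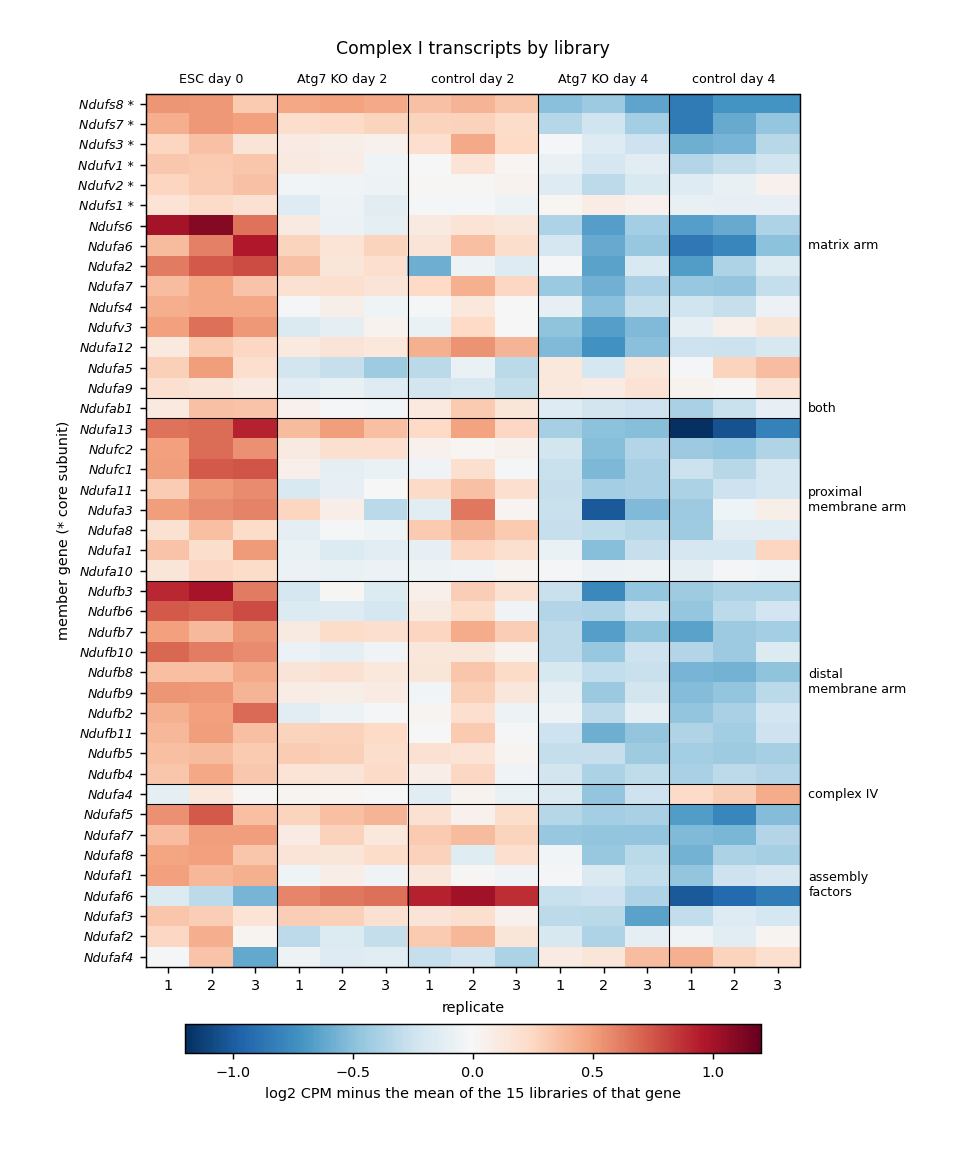
Level of tested genes (rows, by place in the complex; asterisks mark core subunits) in each of the 15 libraries (columns), as log2 CPM minus the mean of the 15 libraries for that gene. Most rows run from red in the ESC libraries to blue in the libraries of day 4, where 40 genes were lower in control cells than in ESCs, and Ndufa4 does not.

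The KO cells went the same way between days 2 and 4. There, 34 of the 44 genes were lower and 3 higher at day 4 (77.3% lower and 6.82% higher, against 32.0% and 31.2% of all tested genes), with a median of -0.36. The 6 libraries of this step are separate from those of the control step, in which 33 genes were lower. The summed level was 1977 to 2179 CPM in KO cells at day 4 and 2558 to 2613 CPM in KO cells at day 2. Library choice bears on this count, since 27 genes were lower without KO day 4 replicate 2 (against 29.5% of all genes tested then). When the mean log2 CPM of 3 collagen genes, taken as a feeder score, was added to the model, 24 genes were lower in this step, 27 in the control step, and 31 between ESCs and control day 4. Calls over all tested genes dropped as well, to 28.8%, 31.3% and 24.9% lower for the same comparisons. The score itself was between 5.87 and 8.93 in ESC libraries, between 6.52 and 7.496 in KO and between 5.42 and 5.70 in control libraries at day 2, and between 4.31 and 4.76 in KO and between 2.90 and 3.12 in control libraries at day 4, so it moves with time as the genes do.

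The core subunits described here fell between ESCs and control day 4. Ndufs8, an iron-sulfur subunit of the ubiquinone module, had 67.8, 67.4 and 58.2 CPM in ESCs, 60.0, 62.1 and 59.2 CPM in control cells at day 2 and 26.1, 28.6 and 28.6 CPM in control cells at day 4. Its level was close to that of ESCs at day 2, where the groups overlap, and most of its fall came after. The first step, -0.09 ± 0.07, did not pass, although it did without ESC replicate 3. The log2 change from day 2 to day 4 was -1.12 ± 0.07 (edgeR adjusted p = 1.33e-09). Ndufs7, which carries the last iron-sulfur cluster before ubiquinone, had 63.6, 67.1 and 65.9 CPM in ESCs, 56.6, 56.7 and 54.6 CPM at day 2 and 26.0, 30.8 and 34.0 CPM at day 4 in control cells. Most of its fall of 1.11 ± 0.08 also came after day 2. Ndufs3, a subunit of the ubiquinone module, had 68.1, 72.7 and 63.6 CPM in ESCs, 65.7, 78.0 and 67.2 CPM in control cells at day 2 and 38.1, 38.8 and 45.3 CPM in control cells at day 4. Its day 2 and ESC libraries overlap, and all 3 day 4 libraries lie below both.

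The core subunits Ndufv1, Ndufv2 and Ndufs1, at the NADH-oxidising end of the matrix arm, also fell. Ndufv1, which holds the flavin and binds NADH, had 152, 152 and 154 CPM in ESCs, 121, 136 and 124 CPM in control cells at day 2 and 95.7, 99.9 and 104 CPM in control cells at day 4, a log2 change of -0.61 ± 0.06 over the whole transition. Ndufv2, its iron-sulfur partner, had 131, 135 and 140 CPM in ESCs, 111, 111 and 113 CPM at day 2 and 98.3, 103 and 114 CPM at day 4 in control cells. Ndufs1, the largest subunit, had 164, 171 and 166 CPM in ESCs, 145, 144 and 140 CPM at day 2 and 138, 137 and 136 CPM at day 4. Both genes fell in the first step and did not pass the test in the second. The total changes were -0.37 ± 0.06 for Ndufv2 and -0.29 ± 0.04 for Ndufs1.

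Among accessory subunits, 26 of 28 tested genes were lower at control day 4 than in ESCs. The 10 genes of the distal membrane arm (Ndufb2 to Ndufb11) were all lower, with a median of -0.93 and a range of -1.24 for Ndufb3 to -0.72 for Ndufb4, and the 8 tested genes of the proximal membrane arm were all lower, with a median of -0.71. Ndufa13 (also known as GRIM-19), which stands where the membrane arm meets the matrix arm, fell most of all 44 genes. It had 67.5, 68.4 and 81.2 CPM in ESCs, 50.5, 59.8 and 51.0 CPM in control cells at day 2 and 18.5, 20.8 and 24.5 CPM in control cells at day 4, a log2 change of -1.77 ± 0.10 (edgeR adjusted p = 2.47e-10). Ndufs6, a zinc-binding subunit added late to the matrix arm, had 69.5, 74.7 and 54.9 CPM in ESCs, 37.6, 39.2 and 38.2 CPM at day 2 and 22.1, 22.9 and 26.9 CPM at day 4 in control cells. Ndufa6, which docks an acyl carrier protein to the matrix arm, had 75.7, 88.8 and 114 CPM in ESCs, 65.0, 74.7 and 67.2 CPM at day 2 and 32.2, 33.8 and 41.5 CPM at day 4. For both genes the 3 groups do not overlap, although the highest day 2 library of Ndufa6 nearly reaches its lowest ESC library. Ndufb3, of the distal membrane arm, had 55.3, 58.6 and 45.7 CPM in ESCs, 30.8, 36.2 and 33.5 CPM at day 2 and 21.9, 22.8 and 22.7 CPM at day 4. The adjusted p from edgeR was 6.56e-09 for Ndufs6, 1.24e-07 for Ndufa6 and 7.68e-08 for Ndufb3, with log2 changes of -1.47, -1.37 and -1.24. Calls near the threshold were those of Ndufa1, whose groups overlap, and Ndufaf2, each of which was lost in 3 of 6 refits that left out 1 library.

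**Figure D2:**
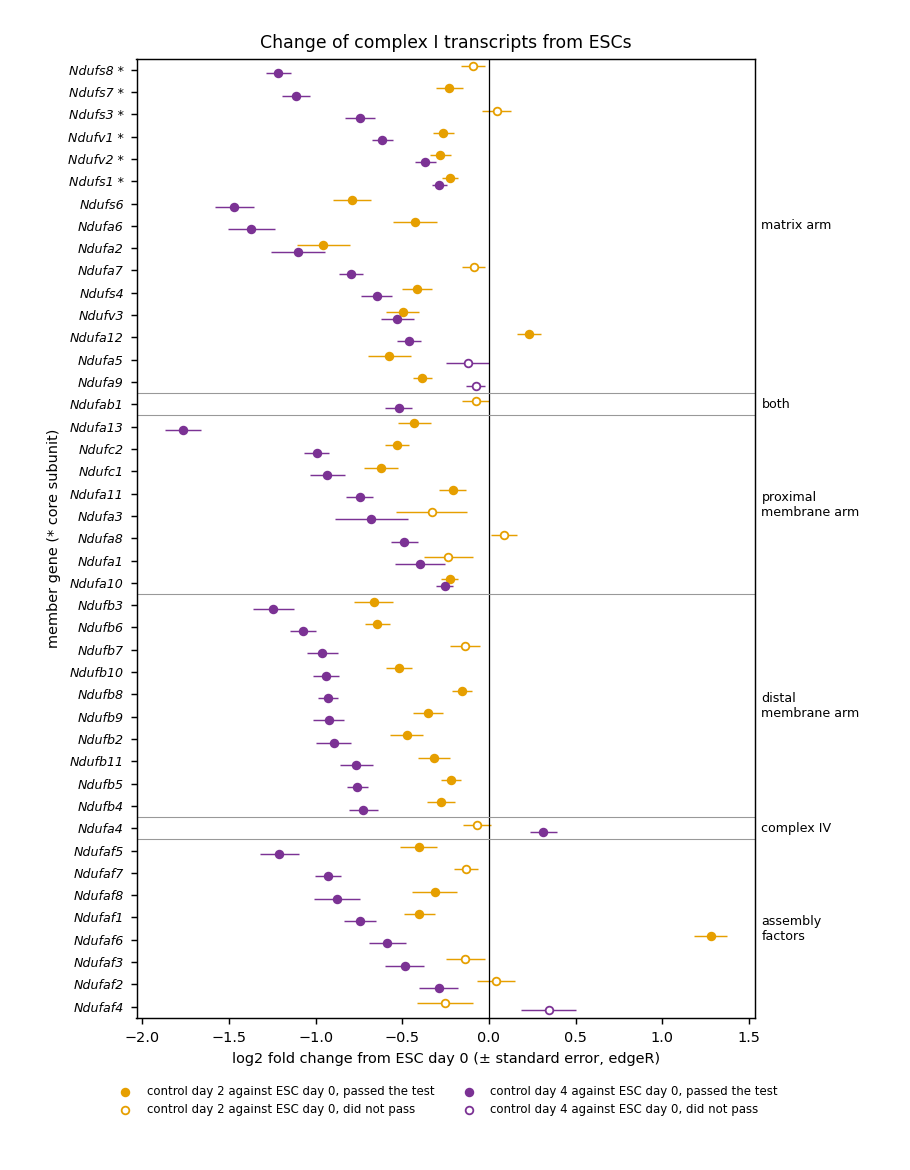
Log2 fold change (x axis) of tested genes (y axis) from ESCs to control day 2 (orange) and to control day 4 (purple), with the standard error from edgeR as bars; filled points passed the test. Purple points lie left of 0 for all but Ndufa4 and Ndufaf4, and Ndufaf6 at day 2 is the point farthest right, with 1.28.

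A few genes did not follow. Ndufa4, the cytochrome c oxidase subunit, had 144, 171 and 158 CPM in ESCs, 143, 161 and 147 CPM in control cells at day 2 and 184, 192 and 212 CPM in control cells at day 4, and rose by 0.31 ± 0.08 over the transition (edgeR adjusted p = 0.00211). The 3 day 4 libraries stand above all 6 earlier ones. From day 2 to day 4 it rose by 0.38 ± 0.08. With the feeder score as a covariate, the call of Ndufa4 from ESCs to control day 4 was lost. Ndufa5 and Ndufa9, accessory subunits of the matrix arm, fell from ESCs to day 2 and rose from day 2 to day 4, by 0.45 ± 0.12 and 0.31 ± 0.06. Ndufa9 had 97.9, 95.9 and 92.9 CPM in ESCs, 73.9, 75.1 and 70.4 CPM at day 2 and 88.5, 86.9 and 96.5 CPM at day 4, and Ndufa5 had 26.5, 30.9 and 25.0, 17.4, 20.6 and 17.4 and 21.5, 26.2 and 28.2 CPM in the same order. These 3 genes lie on chromosome 6, where the median log2 change of 774 tested genes from day 2 to day 4 in control cells was 0.39, so their rises were about as large as that of the typical gene of their chromosome, and the part of the chromosome in them was not tested. The chromosome 6 median was 0.24 from day 2 to day 4 in KO cells, 0.09 from ESCs to control day 2 and 0.43 from ESCs to control day 4. In the last comparison the rise of Ndufa4, 0.31, was thus not above that of its chromosome. Another member on that chromosome, Ndufb2 of the distal membrane arm, fell by 0.42 ± 0.10 from day 2 to day 4 in control cells.

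Of the 8 assembly factors, 7 were lower at control day 4 than in ESCs (87.5%, against 35.6% of all tested genes), with a median of -0.67. Their first step was unlike that of the subunits. From ESCs to control day 2, 3 were lower and 1 higher (37.5% and 12.5%, against 34.9% and 35.6% of all tested genes), while 74.3% of subunits were lower. From day 2 to day 4 in control cells, 7 were lower and 1 higher (87.5% and 12.5%, against 34.6% and 33.9%). Ndufaf5, which hydroxylates an arginine of Ndufs7, had 21.97, 25.2 and 19.3 CPM in ESCs, 17.1, 15.6 and 17.5 CPM in control cells at day 2 and 9.44, 8.77 and 10.5 CPM in control cells at day 4. Its partner Ndufaf8 had 16.3, 16.5 and 14.8 CPM in ESCs, 14.2, 10.6 and 13.5 CPM at day 2 and 7.94, 9.04 and 8.89 CPM at day 4. The log2 changes were -1.21 ± 0.11 and -0.88 ± 0.13. Ndufaf7, an arginine methyltransferase, had 56.2, 61.5 and 61.6 CPM in ESCs, 54.1, 56.8 and 52.6 CPM at day 2 and 30.2, 29.8 and 34.2 CPM at day 4. Its fall of 0.80 ± 0.07 from day 2 to day 4 left no overlap. Ndufaf1, part of the assembly complex of the membrane arm, had 37.8, 35.6 and 36.3 CPM in ESCs, 29.7, 27.3 and 26.2 CPM at day 2 and 19.4, 22.6 and 23.4 CPM at day 4, lower in both steps. Ndufaf3, which with Ndufaf4 binds the early ubiquinone module, had 13.4, 13.1 and 11.9 CPM in ESCs, 11.8, 12.1 and 11.02 CPM at day 2 and 8.66, 9.59 and 9.19 CPM at day 4. Ndufaf4 did not move with it. It had 29.9, 38.3 and 19.6 CPM in ESCs, with the widest ESC scatter of the 8 factors, 24.9, 25.7 and 23.1 CPM at day 2 and 40.5, 36.4 and 34.6 CPM at day 4, a change of 0.34 ± 0.16 over the transition that did not pass (edgeR adjusted p = 0.0609) and of 0.60 ± 0.16 from day 2 to day 4 that did (edgeR adjusted p = 0.00308).

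Ndufaf6 had a course of its own. This factor, needed early in the building of the membrane arm, had 15.4, 13.9 and 11.7 CPM in ESCs, 32.8, 34.7 and 31.9 CPM in control cells at day 2 and 8.60, 9.04 and 9.66 CPM in control cells at day 4. Its day 2 libraries were more than 2 times as high as any library of the other times. It rose by 1.28 ± 0.10 from ESCs to day 2 (edgeR adjusted p = 6.08e-09) and fell by 1.86 ± 0.10 in the step to day 4 (edgeR adjusted p = 1.68e-10). No other member changed in both directions by this much, and Ndufa12 was the only other gene higher at day 2 than in ESCs, by 0.23 ± 0.07. In KO cells Ndufaf6 had 26.0, 26.8 and 27.4 CPM at day 2 and 14.4, 14.5 and 13.4 CPM at day 4, so it peaked lower and ended higher.

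Transcript length differs between the genes, so levels were compared per kilobase of exon. The length used joins all annotated exons of a gene, 5628 bases for Ndufb2. It can exceed that of any single transcript, so the order of genes depends on the annotation. Among the highest in ESCs were Ndufa4 with 114 ± 9.47, Ndufc2 with 112 ± 7.41 and Ndufb6 with 110 ± 3.15 CPM per kilobase (SD, n = 3), which do not differ beyond their spread. The lowest of the tested genes were Ndufb2 with 6.35 ± 0.578, Ndufaf2 with 7.005 ± 0.965, Ndufaf3 with 7.06 ± 0.429 and Ndufaf4 with 7.504 ± 2.39 CPM per kilobase, also within each other's spread. The assembly factors lay between 7.005 and 24.4 CPM per kilobase, a range that also held subunits such as Ndufs1, Ndufb5 and Ndufab1. In control cells at day 4, Ndufa4 had 142 ± 10.8 CPM per kilobase and the next gene, Ndufc2, 56.2 ± 2.02, so that Ndufa4 then stood apart from the rest by more than the spread.

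The other respiratory complexes give a background for the fall. Between ESCs and control day 4, 51 of 64 tested genes of complexes II to V were lower and 3 higher, with a median of -0.86: 4 of 8 for complex II, 13 of 15 for complex III, 18 of 21 for complex IV and 16 of 20 for complex V. Of 78 mitochondrial ribosomal protein genes 64 were lower and 5 higher, with a median of -0.61. Complex I assembly factors outside the Ndufaf names split, with 6 of 11 lower and 1 higher, and of 11 regulators of mitochondrial biogenesis 5 were lower and 2 higher, with a median of -0.06. Of the 9593 tested genes whose mean was at least that of the lowest member, 45.1% were lower, and of the 2462 with exons under 2000 bases, 37.1%. Genes of complexes III to V and of the mitochondrial ribosome thus fell as well, and no test here sets complex I apart from them. In the step from day 2 to day 4 in control cells, 33 of 44 complex I genes, 44 of 64 genes of complexes II to V and 38 of 78 ribosomal protein genes were lower. These are 75.0%, 68.8% and 48.7%, against 34.6% of all tested genes. In the same step in KO cells, 34 (77.3%), 39 (60.9%) and 27 (34.6%) were lower, against 32.0% of all tested genes. There 3 (6.82%), 5 (7.81%) and 19 (24.4%) were higher, against 31.2%. The lower share of the ribosomal protein genes in KO cells was thus near that of all genes.

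**Figure D3:**
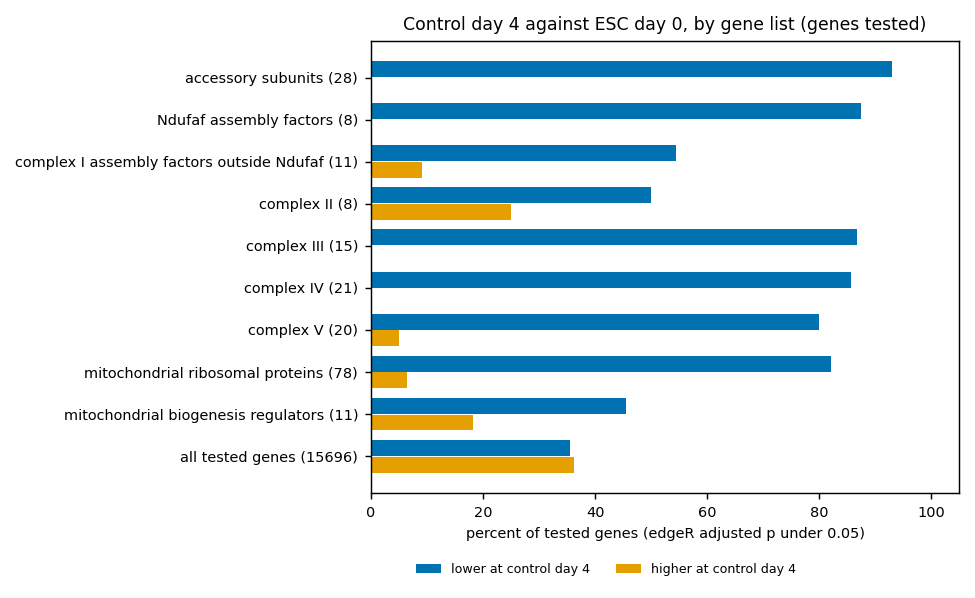
Percent of the tested genes of each list (number in brackets) that were lower (blue) or higher (orange) at control day 4 than in ESCs by edgeR's test. Accessory subunits reach 92.9% lower, beside 35.6% of all tested genes.

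At day 2, the KO changed few complex I genes, and no more than it changed genes at large. In KO cells 8 of 44 genes were lower (18.2%, against 21.4% of all tested genes) and 1 was higher (2.27%, against 20.4%), with a median of -0.07 against -0.01 over all tested genes. A share of lower genes this near that of all genes is not a result about the members. The 8 are Ndufaf2, Ndufa8, Ndufa11, Ndufa12, Ndufaf6, Ndufb3, Ndufb6 and Ndufs3, and the higher one is Ndufa2. Summed over the 45 genes, the level was 2558 to 2613 CPM in KO cells and 2623 to 2856 CPM in control cells.

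Ndufaf2, a chaperone that leaves the complex at the last step of matrix arm assembly, had 14.1, 15.7 and 14.4 CPM in KO cells and 21.9, 23.1 and 19.5 CPM in control cells at day 2. The KO libraries lie below all controls, with a log2 change of -0.54 ± 0.11 (edgeR adjusted p = 0.000958). Over 65.6% of its exon length Ndufaf2 overlaps a gene on the opposite strand, B230220B15Rik, and strandedness of the counting is not stated, so its counts are uncertain. Ndufa12, the subunit that takes the place of Ndufaf2 in the finished complex, had 68.6, 70.2 and 68.8 CPM in KO and 84.7, 92.02 and 83.8 CPM in control cells. It was also lower, by 0.33 ± 0.07, without overlap. Ndufa8, of the intermembrane side of the proximal membrane arm, had 37.5, 39.9 and 39.0 CPM in KO and 50.2, 53.7 and 50.4 CPM in control cells. Ndufa11, a membrane protein of the same arm, had 56.1, 59.5 and 64.1 CPM in KO and 74.5, 81.4 and 73.3 CPM in control cells. The windows of Ndufa8 and Ndufa11 hold the NRF1 motif and were shown above because both genes were lower. The genes fell by 0.40 ± 0.08 and 0.35 ± 0.08 in the KO (edgeR adjusted p = 0.00054 and 0.00184). A part of the motif in these changes was not tested. The other genes with that motif, Ndufa6 and Ndufaf4, had -0.01 ± 0.13 and 0.18 ± 0.16 and did not pass. Ndufaf6 had 26.0, 26.8 and 27.4 CPM in KO and 32.8, 34.7 and 31.9 CPM in control cells, lower by 0.31 ± 0.09, a call lost without control replicate 2. Ndufb6, of the distal membrane arm, had 38.7, 39.0 and 37.4 CPM in KO and 46.6, 50.4 and 42.1 CPM in control cells, and 39.0% of its exon length lies opposite Smim27.

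The last 3 calls at day 2 depended on single libraries. Ndufb3 had 25.7, 29.8 and 26.4 CPM in KO and 30.8, 36.2 and 33.5 CPM in control cells, and Ndufs3 had 61.2, 60.0 and 59.1 CPM in KO and 65.7, 78.0 and 67.2 CPM in control cells. Their groups do not overlap, yet each call was lost in 4 of the 6 refits without 1 library, for Ndufb3 without control replicate 2 or 3 or KO replicate 1 or 3, and for Ndufs3 without control replicate 2 or any KO replicate. Without control replicate 2, 5 genes in all were lower (against 16.2% of all genes tested then). Ndufa2, of the matrix arm, had 41.8, 36.1 and 37.6 CPM in KO and 21.8, 31.3 and 29.4 CPM in control cells, higher by 0.48 ± 0.15 (edgeR adjusted p = 0.0186). It lies on chromosome 18 (36742332 to 36744557, minus strand, GRCm38), where the median of 401 tested genes in this comparison was 0.56. Its rise is thus not above that of its chromosome, whose part in it was not tested, and the call was lost without control replicate 1 or KO replicate 1. In a model of only these 6 libraries 13 genes were lower and 7 higher (against 28.2% lower and 28.8% higher of the 14964 genes tested in it), so calls rose over all genes too.

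At day 4 several core subunits were higher in KO cells. In KO cells 8 of 44 genes were higher (18.2%, against 19.5% of all tested genes) and 3 lower (6.82%, against 18.1%), with a median of 0.02 against -0.01 over all tested genes. The share of higher genes is again that of all genes. The higher genes include the core subunits Ndufs1, Ndufs3, Ndufs7 and Ndufs8, and of the 28 tested accessory subunits 2, Ndufa13 and Ndufb8. The core subunits were pointed out after their values were known, and no test of their difference from the others was made. In the same libraries all 7 ESC markers were higher in KO cells, against 4 of 7 at day 2, and their part in these values was not tested. The summed level of all 36 subunits was 1720 to 1888 CPM in KO and 1652 to 1840 CPM in control cells, overlapping ranges.

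Ndufs3 had 56.6, 51.4 and 47.9 CPM in KO and 38.1, 38.8 and 45.3 CPM in control cells at day 4, all KO libraries above all controls, with a log2 change of 0.35 ± 0.09 (edgeR adjusted p = 0.00481). Ndufs7 had 37.0, 39.7 and 35.3 CPM in KO and 26.0, 30.8 and 34.0 CPM in control cells, and the change was 0.30 ± 0.08 (edgeR adjusted p = 0.00813). The lowest KO library and the highest control library of Ndufs7 lie close together, within the scatter of the controls. Ndufs8 had 33.2, 34.6 and 30.3 CPM in KO and 26.1, 28.6 and 28.6 CPM in control cells, and Ndufs1 had 148, 155 and 152 CPM in KO and 138, 137 and 136 CPM in control cells. Their changes were 0.24 ± 0.08 and 0.15 ± 0.04, small beside the fall over time. The call was lost for Ndufs8 without control replicate 1 or KO replicate 1 or 2 and for Ndufs1 without KO replicate 2. The core subunits Ndufv1 and Ndufv2 did not pass: Ndufv1 had 115, 106 and 111 CPM in KO and 95.7, 99.9 and 104 CPM in control cells (0.15 ± 0.06, edgeR adjusted p = 0.0605), and Ndufv2 had 98.8, 88.4 and 96.9 CPM in KO and 98.3, 103 and 114 CPM in control cells (-0.15 ± 0.06, edgeR adjusted p = 0.0575).

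Ndufaf6 had 14.4, 14.5 and 13.4 CPM in KO and 8.60, 9.04 and 9.66 CPM in control cells, the largest rise at day 4, with 0.63 ± 0.10 (edgeR adjusted p = 0.000176). Ndufa13 had 32.6, 30.5 and 30.1 CPM in KO and 18.5, 20.8 and 24.5 CPM in control cells, and Ndufb8, of the distal membrane arm, had 80.3, 75.0 and 76.3 CPM in KO and 62.4, 62.2 and 65.7 CPM in control cells. None of these groups overlap, and the changes were 0.55 ± 0.11 and 0.28 ± 0.06. Ndufa13 shares 30.0% of its exon length with Tssk6 on the opposite strand. The lower genes were Ndufa4, Ndufv3 and Ndufa12. Ndufa4 had 139, 112 and 131 CPM in KO and 184, 192 and 212 CPM in control cells, with a log2 change of -0.62 ± 0.08 (edgeR adjusted p = 2.06e-05). Its KO libraries are also below those of day 2, so that the gene fell by 0.31 ± 0.08 from day 2 to day 4 in KO cells and rose in controls; the chromosome 6 median of the KO comparison at day 4 was -0.05. Ndufv3, a small subunit of the NADH-oxidising module, had 22.4, 19.8 and 21.7 CPM in KO and 28.8, 32.6 and 34.6 CPM in control cells, a change of -0.59 ± 0.10 (edgeR adjusted p = 0.000243). Ndufa12 had 43.7, 38.1 and 44.6 CPM in KO and 53.3, 52.7 and 55.4 CPM in control cells, and was the only member that was lower in the KO at both days, by 0.33 ± 0.07 and 0.35 ± 0.07.

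**Figure D4:**
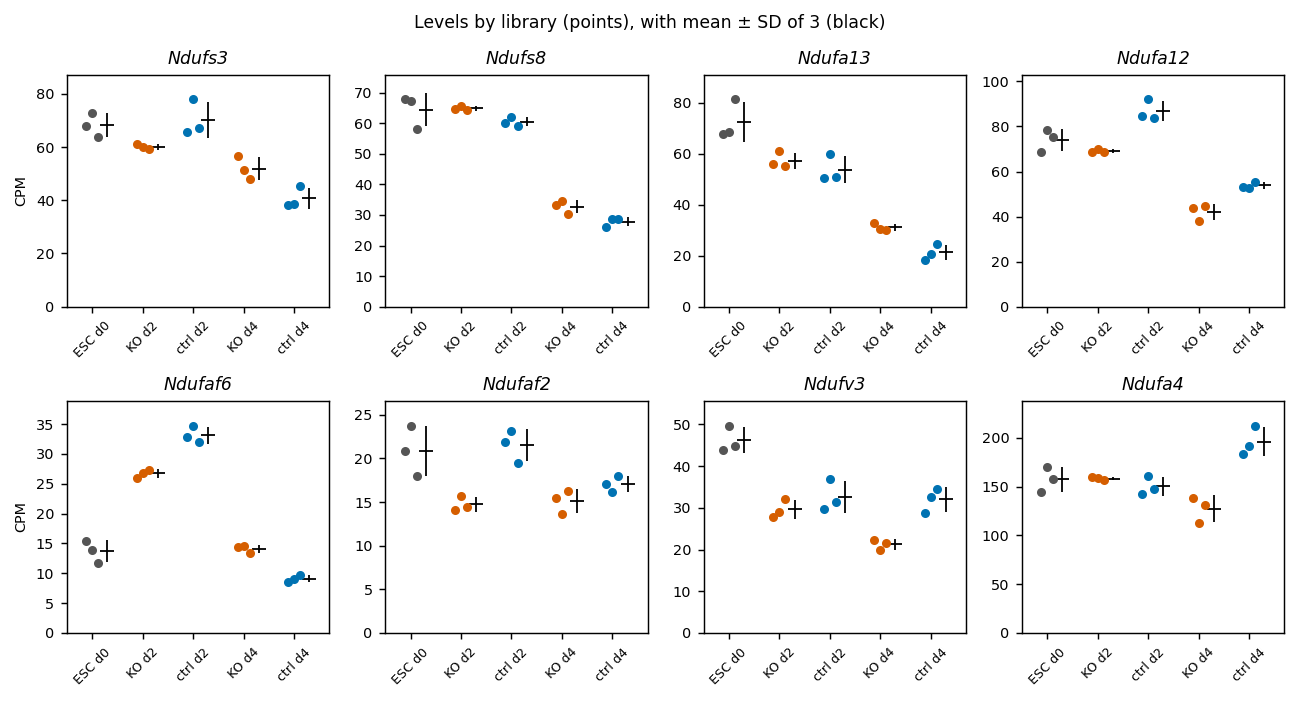
CPM of 8 genes in every library (points, y axis from 0) by group (x axis; d0, d2 and d4 are the days), with mean ± SD of 3 libraries in black. In each day the KO is left of its control. Ndufaf6 peaks at day 2, and Ndufa4 at day 4 stands between 112 and 139 CPM in KO cells and between 184 and 212 CPM in control cells.

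The other assembly factors were not called in the KO at day 4. Ndufaf1 had 26.8, 23.9 and 21.9 CPM in KO and 19.4, 22.6 and 23.4 CPM in control cells, Ndufaf2 had 15.4, 13.6 and 16.3 CPM in KO and 17.0, 16.1 and 17.96 CPM in control cells, and Ndufaf3 had 8.56, 8.53 and 6.85 CPM in KO and 8.66, 9.59 and 9.19 CPM in control cells. Ndufaf4 had 32.4, 33.3 and 39.0 CPM in KO and 40.5, 36.4 and 34.6 CPM in control cells, and Ndufaf5 had 11.9, 11.4 and 11.48 CPM in KO and 9.44, 8.77 and 10.5 CPM in control cells. Ndufaf7 had 31.8, 31.4 and 31.3 CPM in KO and 30.2, 29.8 and 34.2 CPM in control cells, and Ndufaf8 had 11.48, 8.53 and 9.39 CPM in KO and 7.94, 9.04 and 8.89 CPM in control cells. Their log2 changes ran from -0.19 for Ndufaf3 to 0.27 for Ndufaf5, whose KO libraries lie above all controls but which did not pass (edgeR adjusted p = 0.0697). At day 2 the 6 factors that did not pass ran from -0.15 for Ndufaf7 to 0.20 for Ndufaf5.

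The effect of the KO differed between the days for 10 members. In the test of that difference (day 4 minus day 2), 8 genes were higher (18.2%, against 18.6% of all tested genes) and 2 lower (4.55%, against 17.6%), shares again at or under those of all genes. The 8 include the core subunits Ndufs1, Ndufs3 and Ndufs7, with Ndufaf6, Ndufa13, Ndufb8 and Ndufa8. Ndufs3 and Ndufaf6 were lower in the KO at day 2 and higher at day 4, each by its own test. Differences were 0.58 ± 0.12 for Ndufs3 (edgeR adjusted p = 0.00159) and 0.94 ± 0.14 for Ndufaf6 (edgeR adjusted p = 7.47e-05). The 2 lower ones were Ndufa4 and Ndufv3, with -0.70 ± 0.11 and -0.45 ± 0.14. For Ndufa12 the difference was -0.03 ± 0.10 (edgeR adjusted p = 0.861). The 2 days share no library, but feeder markers were higher in KO cells at both, by medians of 1.13 and 0.84 over the 10 markers with 5 and 1 passing the test, and their part in these results was not tested.

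**Figure D5:**
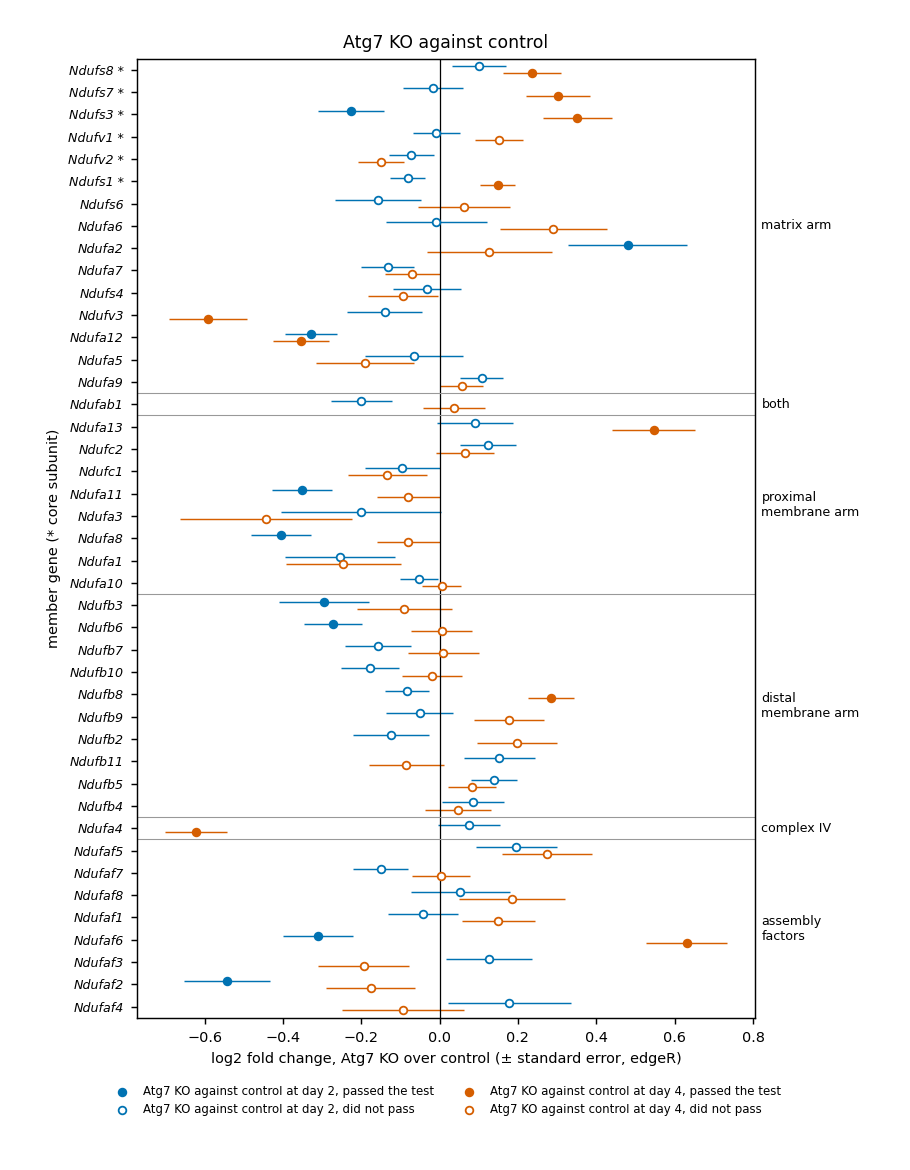
Log2 fold change of KO over control (x axis) at day 2 (blue) and day 4 (orange) for tested genes (y axis), with the standard error from edgeR as bars; filled points passed the test. At day 4 the core subunits Ndufs1, Ndufs3, Ndufs7 and Ndufs8 are filled to the right of 0, and Ndufa4 and Ndufv3 are the leftmost filled orange points.

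Genes of complexes II to V were more often lower than higher in the KO at day 2 and mixed at day 4. Of all tested genes, 21.4% were lower and 20.4% higher at day 2, and 18.1% lower and 19.5% higher at day 4. At day 2, 23 of 64 tested genes of complexes II to V were lower (35.9%) and 4 higher (6.25%), with a median of -0.14. Among them were Uqcrc1, a core subunit of complex III, lower by 0.31 ± 0.05, and Cox17, a copper chaperone of complex IV, lower by 0.57 ± 0.09. At day 4, 11 were higher and 11 lower (17.2% each), with a median of -0.02. Uqcrc1 was then higher by 0.60 ± 0.05 and Cyc1, cytochrome c1, by 0.53 ± 0.06, while Uqcrh, a small subunit of complex III, was lower by 0.51 ± 0.09. Of the 78 mitochondrial ribosomal protein genes 2 were higher (2.56%) and 16 lower (20.5%) at day 2, and 19 higher (24.4%) and 8 lower (10.3%) at day 4. Of 11 assembly factors of complex I outside the Ndufaf names 2 were higher and 4 lower at day 2, among them Tmem70 and Dmac1, lower by 0.27 ± 0.08 and 0.53 ± 0.11, and 1, Dmac2, was higher at day 4, by 0.23 ± 0.06. Of 11 regulators of mitochondrial biogenesis 2 were higher and 1 lower at day 2, and 4 higher and 2 lower at day 4. Among them were Pprc1, a coactivator of the PGC-1 family, higher by 0.87 ± 0.08 at day 4, and Esrra, a nuclear receptor, lower by 0.46 ± 0.09 at day 2. Of 10 respirasome and electron entry factors, 2 were higher and 5 lower at day 2 (20.0% and 50.0%), and 2 higher and 3 lower at day 4 (20.0% and 30.0%). These last 3 lists are short, so their shares rest on few genes. For the assembly factors the shares were 18.2% higher and 36.4% lower at day 2, and 9.09% and 0% at day 4. For the regulators they were 18.2% and 9.09% at day 2, and 36.4% and 18.2% at day 4.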

How the data were processed

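The authors deposited whole-number read counts for each gene symbol, and those of all 15 libraries were used. The submitters' processing notes name STAR, featureCounts, StringTie and DESeq2, and the builds mm10 and GRCm38, without roles; their versions, the annotation and the strandedness are not stated in the labels. Membership followed the symbol rule alone, while the gene lists and the members named by library were chosen with earlier results of these data known. Genes were filtered with filterByExpr (minimum count 10, minimum total 15), leaving 15696 of 24982. The counts were TMM-scaled and fitted in 1 quasi-likelihood model of 5 groups with edgeR 4.0.16 (limma 3.58.1, R 4.3.3), and p-values were Benjamini-Hochberg adjusted over all tested genes. The step between days 2 and 4 in KO cells was added after seeing the data. The core subunits, the Ndufaf genes and the members with the largest changes in a comparison are given by library; 1 member counted in the totals is not reported here. On simulated counts for 15696 genes in the day 2 KO comparison, 49.3% of 1.5-fold and 70.1% of 2-fold changes were recovered. Only 67 genes of any level were changed at each of these folds. In the data 20.4% of genes were called higher and 21.4% lower, so these rates need not hold for the members. Exon lengths and positions came from GENCODE M21. Deviations of same-numbered replicates were only weakly correlated between groups, at -0.11 to 0.10. No pair of replicates agreed within counting noise (chi-square per degree of freedom 3.2 to 31.8). The highest values, 31.8 and 24.2, were those of ESC replicate 3 against ESC replicates 1 and 2, and all other pairs had 3.2 to 7. That library also had the lowest fibroblast marker sum of the ESC libraries, 221 CPM. Alternatives were other scaling, filters, DESeq2 1.42.0, a 1.5-fold threshold, fewer groups, a replicate block, single libraries left out and, added after seeing the data, a feeder score, 13 libraries and chromosome 18 left out. The 13 libraries were those without ESC replicate 3 and KO day 2 replicate 2.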

Additional observations from a re-analysis of the deposited data

Results flagged for a closer look

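The effect of the Atg7 KO differed between day 4 and day 2 for several genes in edgeR's test of the difference itself (log2, KO over control at day 4 minus the same at day 2, 3 libraries a group). It was higher at day 4 for Ndufaf6 by 0.94, Ndufs3 by 0.58, Ndufa13 by 0.46, Ndufb8 by 0.37, Ndufa8 by 0.32, Ndufs7 by 0.32 and Ndufs1 by 0.23. It was lower at day 4 for Ndufa4, at -0.70, and for Ndufv3, at -0.45. Ndufaf6, Ndufs3, Ndufb8, Ndufs1 and Ndufa4 passed in all 12 refits that left out 1 library. The test was lost in 9 of the 12 for Ndufs7, in 6 for Ndufa8, and in 4 for Ndufa13 and Ndufv3.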

How the results depend on the processing

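Counts are of members higher or lower with an edgeR adjusted p under 0.05 unless said otherwise. Tested against a 1.5-fold change, the KO comparisons gave 0 higher and 0 lower at day 2 and at day 4, and 1 higher and 0 lower for their difference. Of all tested genes, 2.71% were then higher and 2.69% lower at day 2, 1.09% and 2.82% at day 4, and 2.23% and 3.16% for the difference. That test left 1 higher and 2 lower from ESCs to control day 2, 0 and 11 from day 2 to day 4 in control cells, 0 and 26 from ESCs to control day 4, and 0 and 4 from day 2 to day 4 in KO cells. Of all tested genes, 18.8%, 16.1%, 20.4% and 11.6% were higher in these steps, and 14.8%, 14.5%, 16.5% and 11.7% lower. Among the 44 members, the lower share was thus under that of all genes from ESCs to control day 2 and in KO cells. With at least 10 CPM required in 3 libraries, the KO had 2 higher at day 2, 5 at day 4 and 5 for the difference. Of all genes tested with that filter, 25.5%, 21.8% and 20.4% were higher. With only the groups compared in the model, day 2 had 7 higher and 13 lower (against 28.8% and 28.2% of all genes tested in it). With RLE scaling, no filter, the 10 CPM filter or DESeq2, 2 genes were higher at control day 4 than in ESCs, Ndufaf4 being added. With the feeder score as a covariate there were 5 lower in the KO at day 4, 13 higher for the difference and 1 higher from ESCs to control day 2. Of all tested genes, 18.6% were then lower, 23.2% higher and 30.4% higher in the same order. With that covariate, Ndufaf2 at control day 4 against ESCs reversed to 0.23 (edgeR adjusted p = 0.503). The cause was not tested.

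Without single libraries, the KO had 0 to 2 higher and 5 to 8 lower at day 2, 6 to 9 and 3 to 4 at day 4, and 4 to 10 and 1 to 3 for the difference. Of all genes tested in those refits, 16% to 17.7% were higher and 15.9% to 17.7% lower at day 2. These shares were 16.1% to 16.8% and 13.9% to 14.9% at day 4. For the difference they were 15.6% to 16.8% and 14.5% to 15.5%. The steps had 2 higher and 26 to 29 lower from ESCs to control day 2, 4 and 30 to 34 from day 2 to day 4 in control cells, 1 to 2 and 38 to 40 from ESCs to control day 4, and 2 to 3 and 27 to 34 in KO cells. Of all genes tested in those refits, 33% to 37.8%, 30.7% to 31.5%, 34% to 38.1% and 28.1% to 28.6% were higher in the same order. The lower shares were 32.5% to 35.8%, 31.6% to 32.2%, 33.5% to 36.2% and 28.9% to 29.5%. Same-numbered libraries of different groups were only weakly correlated (-0.11 to 0.10). Each control day 2 library was still closest to the ESC library of its number, with 0.055, 0.032 and 0.049. Whether replicate numbers pair the samples is thus not settled. A replicate block gave 1 higher and 6 lower at day 2, 8 and 3 at day 4, 8 and 2 for the difference, and 2 and 29, 4 and 33, 1 and 40, and 3 and 33 for the 4 steps in the order above. Of all tested genes, 19.8% were then higher and 20.9% lower at day 2. The shares were 19.1% and 17.6% at day 4, and 18.1% and 17% for the difference. For the 4 steps they were 35.4% and 34.6%, 33.6% and 34.4%, 36% and 35.2%, and 31% and 31.6%.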
